A study of Mus musculus with 2 samples.

Results

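The replication-dependent histone genes are the intronless or nearly intronless genes that supply the core histones H2A, H2B, H3 and H4 and the linker histone H1 while DNA is being copied. They were taken here as the protein-coding genes of GENCODE mouse release M21 whose symbols begin with Hist1h, Hist2h, Hist3h or Hist4h. The rule uses names and not measured values, and it found 67 genes among the 54531 genes of the deposited table. They comprised 6 H1, 18 H2A, 18 H2B, 12 H3 and 13 H4 genes. Of these, 54 belong to the Hist1 cluster on chromosome 13, 10 to the Hist2 cluster on chromosome 3, 2 to the Hist3 cluster on chromosome 11 and 1 to Hist4 on chromosome 6. Hist1h2aj, Hist1h2al and Hist3h2bb-ps are pseudogenes in that annotation and were not included.

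The study measured RNA of hematopoietic stem cells (HSCs) sorted from mouse bone marrow by paired-end sequencing. One library came from Cdh5-Cre;Angptl2fl/fl mice, in which Cre under the endothelial Cdh5 promoter is meant to delete Angptl2, a secreted angiopoietin-like protein, in endothelial cells. The other came from control mice labelled Angptl2fl/fl. A second label of the control mentions Cdh5 and Cre and no floxed allele, so whether the control mice carried Cre or the floxed alleles is not settled by the labels. The number of mice behind each library, their age and the surface markers of the sort are not given. The 2 libraries are called deletion HSCs and control HSCs below. With 1 library per genotype no difference between genotypes can be tested, and higher or lower describes these 2 libraries.

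Most histone protein is made in S phase, when the mRNAs of these genes are transcribed at nuclear histone locus bodies organised by NPAT and FLASH (Casp8ap2). Their mRNAs normally carry no poly(A) tail and end instead just after a short stem-loop, which is bound by SLBP and processed with the U7 snRNP. When DNA synthesis stops these mRNAs are degraded, whereas replacement variants such as H3.3 and H2A.Z come from ordinary polyadenylated mRNAs that are made throughout the cell cycle.

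The stem-loop is the feature that ties these genes together, and it was read from the GENCODE M21 transcripts. The histone stem-loop pattern has arms of 6 bases around a loop of 4. It was searched as letters, with C or T in the first arm set against A or G in the second, and pairing was not required. In the 8 forms found in histone genes the arms do pair. The pattern was found after the stop codon in 46 of the 67 genes (68.7%). Of all 21951 protein-coding genes, which include the histone genes, 283 (1.29%) had a match. In the histone genes the pattern lay close to the stop codon. It began 21 to 58 bases after the stop codon, with a median of 31. In 15 of the other 21 genes the annotated model ended fewer than 30 bases after the stop codon, short of that median. There were 8 distinct stem-loops, of which the commonest was in 26 genes, and the sequences below show that form and its variants in the genes on which the results turn. The stem-loop is in capitals with 5 bases on each side, 5′ to 3′ on the strand of the gene.

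Hist1h1c: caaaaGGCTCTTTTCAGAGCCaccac
Hist1h2bg: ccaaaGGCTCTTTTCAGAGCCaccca
Hist1h2ab: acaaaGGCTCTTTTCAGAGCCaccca
Hist1h3c: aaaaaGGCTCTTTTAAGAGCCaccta
Hist2h2ac: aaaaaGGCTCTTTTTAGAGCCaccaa
Hist1h4i: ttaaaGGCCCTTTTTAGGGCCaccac
Hist1h4a: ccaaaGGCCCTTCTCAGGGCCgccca
Hist1h4j: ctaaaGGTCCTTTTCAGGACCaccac

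Hist1h1c, Hist1h2bg and Hist1h2ab carry the commonest form, Hist1h3c and Hist2h2ac differ from it in the loop, and the H4 genes shown differ in the stem, Hist1h4i and Hist1h4a in the loop as well. The sequences are alike between genes that were high, low or higher in one library, so they are shown for what the genes share. Hist1h1c lies at chr13:23738808-23740367 (plus strand), Hist1h2bg at chr13:23571396-23572013 (plus), Hist1h2ab at chr13:23751126-23751598 (plus), Hist1h3c at chr13:23744973-23745602 (minus), Hist2h2ac at chr3:96220361-96220880 (minus), Hist1h4i at chr13:22040636-22041362 (minus), Hist1h4a at chr13:23760692-23761230 (minus) and Hist1h4j at chr13:21735064-21735837 (plus), all on GRCm38.

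The genes also share protein and nucleotide sequence, which bears on how well reads can be assigned to them. The 13 H4 genes encode 1 protein, the 12 H3 genes 3 proteins, the 18 H2A genes 9, the 18 H2B genes 12 and the 6 H1 genes 6. Each gene model was therefore cut into all its windows of 150 bases, the read length, and each window was searched in every other GENCODE gene on both strands. In 13 genes no window occurred elsewhere, in 49 some did, and in 5 all did. In 24 genes more than 50% of the windows were shared. How the authors' counting placed reads that match several genes is not given in the sources used here, so the values of genes with shared windows are uncertain.

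Values are the deposited FPKM, which divide the fragments of a gene by the length of its model in kilobases and by the depth in units of 1000000 fragments. The FPKM steps returned whole fragment numbers for all 67 genes, and depths of 16843100 fragments in deletion HSCs and 17378600 in control HSCs. The 67 genes held 5027 fragments in deletion HSCs and 4994 in control HSCs, which is 298 and 287 per 1000000 (0.0298% and 0.0287% of the depth). Their summed level was 335 FPKM in deletion HSCs, against 307 FPKM in control HSCs, a log2 ratio of 0.12. Setting both libraries to the same FPKM total turned that sign, to -0.024, and the 95% counting interval of the fragment ratio, -0.0021 to 0.11 on the log2 scale, includes equality. No direction is therefore given for the summed level. Counting intervals here are exact and cover counting error only, not differences between mice or preparations.

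Levels of single genes spread widely. Of the 67 genes 8 were listed at 0 in both libraries. They were the testis genes Hist1h1t, Hist1h2aa and Hist1h2ba, and Hist2h2aa1, Hist2h2aa2, Hist2h2bb, Hist2h3b and Hist2h3c1. The last 5 are the genes in which every window is shared with another gene, so their 0 cannot be read as absence. A further 15 genes had a mean under 1 FPKM, 26 a mean of 1 to 5 FPKM, 14 of 5 to 20 FPKM and 4 of at least 20 FPKM. Those 4, Hist1h1c, Hist1h4i, Hist1h2bg and Hist1h2bc, together made up 42.6% of the histone FPKM in deletion HSCs and 47.6% in control HSCs. Hist1h1c stood at percentile 95.5 of the 15195 protein-coding genes above 0 by its mean FPKM, while the others were at percentiles 90.1, 84.4 and 82.8 in the order given.

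**Figure D1:**
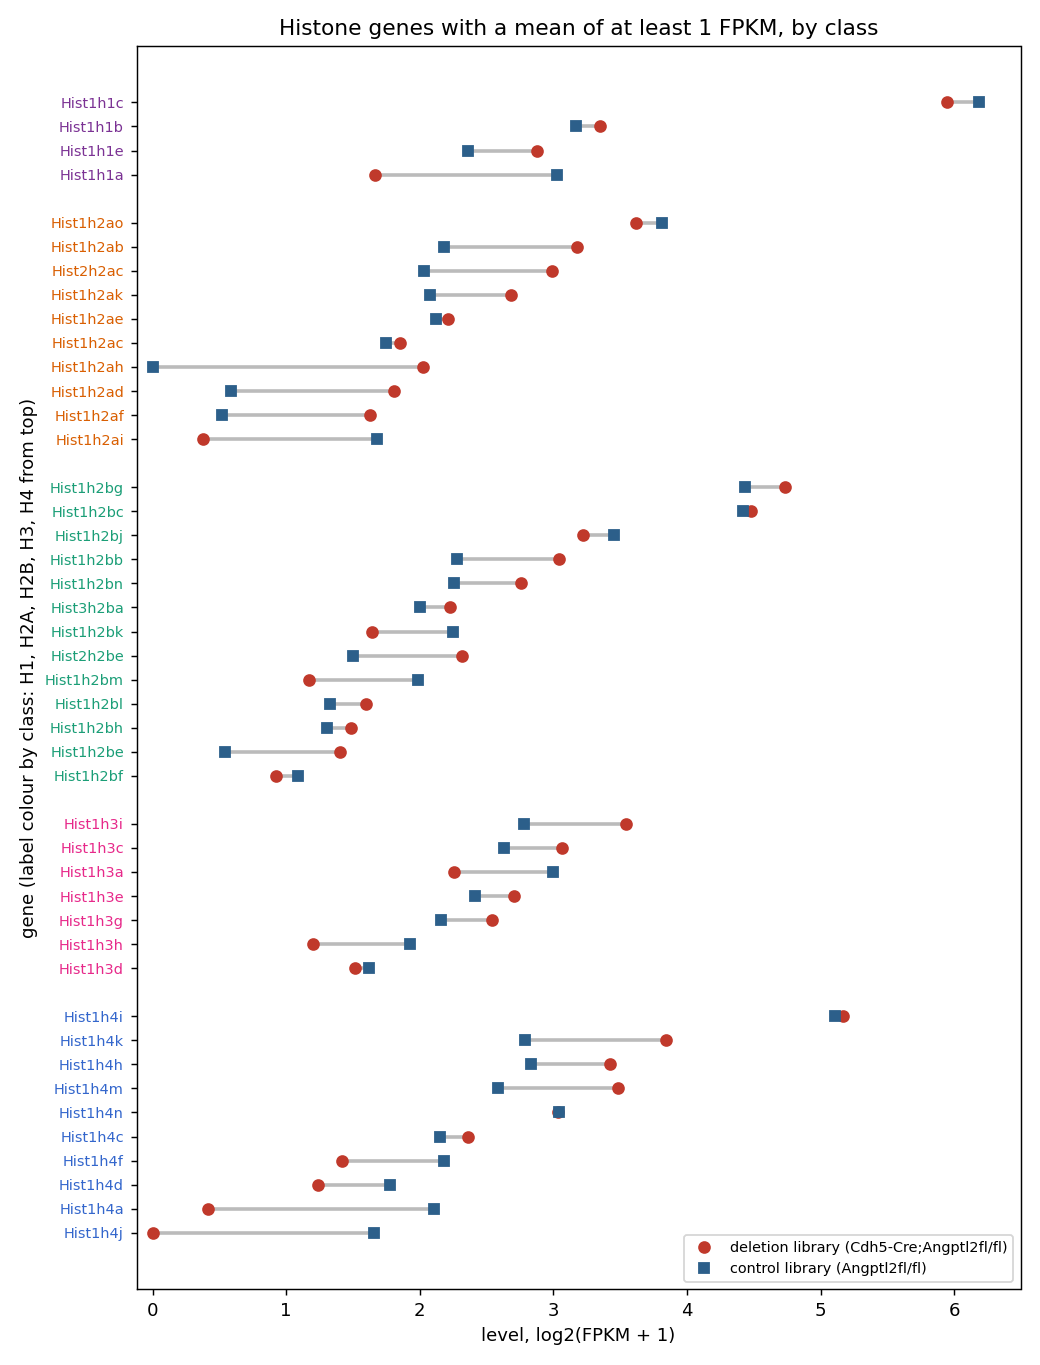
Level of each of the 44 histone genes whose mean reached 1 FPKM, by class, with 1 point for the deletion library and 1 for the control library on a log2(FPKM + 1) axis. Hist1h1c is the highest, at 60.7 FPKM in deletion HSCs and 71.9 FPKM in control HSCs, and Hist1h2ah and Hist1h4j are each listed at 0 in one library.

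Calls past 2-fold were few. Of the 44 genes whose mean reached 1 FPKM, 4 lay 2-fold or more above control HSCs on the log2(FPKM + 1) scale, Hist1h2ah, Hist1h2ad, Hist1h2af and Hist1h4k, and 4 lay 2-fold or more below, Hist1h4a, Hist1h4j, Hist1h1a and Hist1h2ai. Each is 9.09% of 44, against 2.47% higher and 3.38% lower of all 12325 genes with that mean. Among 10232 protein-coding genes the shares were 0.489% and 0.753%, and among the 3216 protein-coding genes with a mean of 1 to 5 FPKM they were 0.84% and 1.43%. The 8 histone genes had 17 to 119 fragments in both libraries together, and the median of the 44 was 95. All 4 of the higher genes and 1 of the 4 lower genes had more than 50% of their windows shared with other genes, against 11 of the 44. Without the genes at or above 50% of windows shared, 0 were 2-fold higher and 3 were 2-fold lower, an alternative chosen after the data were seen.

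**Figure D2:**
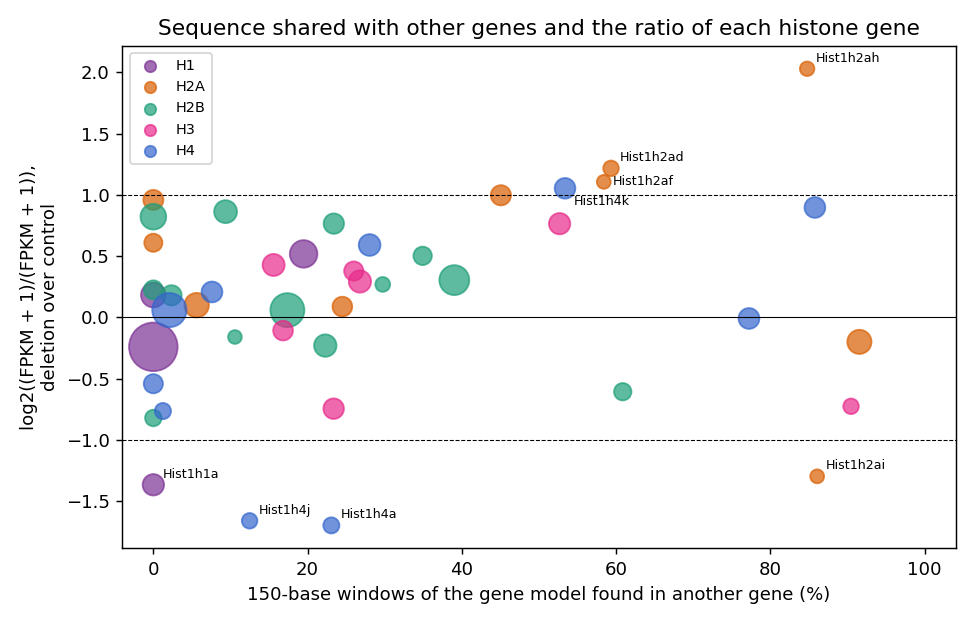
Share of 150-base windows of each histone gene found in another gene (x axis, percent) against its log2((FPKM + 1)/(FPKM + 1)) of deletion over control (y axis), with larger points for genes with more fragments and dashed lines at 2-fold. The 4 genes past 2-fold higher lie between 53.4% and 84.8% shared, and Hist1h1a, past 2-fold lower, is at 0%.

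The bulk of the genes sat slightly above 0. The median log2 ratio, deletion over control, was 0.20, with quartiles of -0.23 and 0.65, and 28 of 44 genes were above 0 (63.6%). Over all genes tested in the same way the median was -0.011, the quartiles -0.20 and 0.18, and 48.4% were above 0. The median stayed above 0 under every scaling and filter run, between 0.10 and 0.37. Setting both libraries to a common FPKM total gave 0.10 for the histone genes, of which 51 then passed the minimum, and -0.16 for all genes. By counting error alone, 17 of the 59 genes with fragments had an interval above equality, 11 below it, and 31 included it. Among 14476 protein-coding genes 22.7% lay above and 29.1% below. Among those with 10 to 200 fragments, 14 histone genes lay above and 9 below of 45, while 18.6% of 3450 protein-coding genes lay above and 28.1% below.

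Linker histone H1 binds the DNA entering and leaving the nucleosome and compacts chromatin. Its summed level was 79.1 FPKM in deletion HSCs, against 92.0 FPKM in control HSCs, a log2 ratio of -0.22 with a fragment interval of -0.28 to -0.11. It was the class whose sum was lower in deletion HSCs, and it stayed lower when both libraries were set to a common total (-0.37). Hist1h1c made up most of that difference. The other 5 H1 genes summed to 18.4 FPKM in deletion HSCs and 20.1 FPKM in control HSCs, also lower. They held 432 fragments in deletion HSCs and 447 in control HSCs, with an interval of -0.20 to 0.19 that includes equality. Hist1h1c, which shares no window with another gene, was at 60.7 FPKM in deletion HSCs and 71.9 FPKM in control HSCs, from 1596 (deletion) and 1949 (control) fragments. Its log2 ratio, like those of single genes below on the log2(FPKM + 1) scale, was -0.24 (interval of the plain ratio -0.34 to -0.15). The other H1 genes did not share one direction. Hist1h1b was at 9.19 FPKM in deletion HSCs and 7.98 FPKM in control HSCs, and Hist1h1e at 6.37 FPKM in deletion HSCs, against 4.14 FPKM in control HSCs. The Hist1h1e model overlaps that of Hist1h2be on the same strand, so their fragments may not be separable. Hist1h1a lay furthest below, with 2.16 FPKM in deletion HSCs and 7.14 FPKM in control HSCs from 27 (deletion) and 92 (control) fragments, a plain ratio 3.30-fold lower (log2 interval -2.40 to -1.09). Hist1h1d had a mean under 1 FPKM over its model of 7425 bases, with 83 fragments in deletion HSCs and 113 in control HSCs.

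H2A forms a dimer with H2B on the outside of the nucleosome. H2A had the highest class median, a log2 ratio of 0.78 over its 10 genes whose mean reached 1 FPKM, 8 above 0 and 2 below. The class median was 0.27 at a common total, and 0.35 without mitochondrially encoded genes in the total. Both of these medians cover more genes, because rescaling raised Hist1h2ag and Hist1h2ap past the minimum of 1. At a common total those genes had ratios of -1.93 and -0.22, so the drop from 0.78 does not show scaling alone. The class sum was 46.9 FPKM in deletion HSCs, against 34.4 FPKM in control HSCs. The sum was higher by 0.45 on the log2 scale (fragment ratio 0.33, interval 0.14 to 0.53) and by 0.30 at a common total. Hist1h2ao, the most abundant, was at 11.3 FPKM in deletion HSCs and 13.1 FPKM in control HSCs. Hist1h2ab was at 8.03 FPKM, against 3.53 FPKM in control HSCs, just short of 2-fold at 0.996. Hist2h2ac, which shares no window, was at 6.96 FPKM in deletion HSCs and 3.10 FPKM in control HSCs (0.96). The interval of Hist1h2ao, -0.63 to 0.20, includes equality and 91.5% of its windows are shared, whereas the intervals of the next 2 lay above equality. Low genes gave the widest ratios. Hist1h2ah had 21 fragments in deletion HSCs and 0 in control HSCs (3.08 FPKM in deletion HSCs and 0 FPKM in control HSCs). That is 7.22-fold higher when control HSCs are set at 3 fragments, and the lower end of its log2 interval was 2.43. Hist1h2ad was at 2.49 FPKM in deletion HSCs and 0.50 FPKM in control HSCs, from 24 (deletion) and 5 (control) fragments. Hist1h2af was at 2.08 FPKM in deletion HSCs and 0.43 FPKM in control HSCs, from 14 (deletion) and 3 (control) fragments. Hist1h2ai went the other way, with 2 fragments in deletion HSCs and 15 in control HSCs, a plain log2 ratio of -2.86 with an interval of -6.03 to -0.76. Each of these 4 low genes shares more than 50% of its windows with other H2A genes.

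H2B had no gene past 2-fold among its 13 whose mean reached 1 FPKM, although 9 of them were above 0 and 4 below, with a median of 0.23. The class sum was 87.2 FPKM in deletion HSCs and 75.1 FPKM in control HSCs (log2 ratio 0.22, and 0.07 at a common total). The fragment ratio, in which longer models weigh more, was 0.36 with an interval of 0.24 to 0.48. Hist1h2bg was at 25.7 FPKM in deletion HSCs and 20.6 FPKM in control HSCs (0.30), and Hist1h2bc at 21.4 FPKM, against 20.5 FPKM in control HSCs (0.06). Hist1h2bj was at 8.34 FPKM in deletion HSCs and 9.94 FPKM in control HSCs. The 3 most abundant H2B genes thus differed by less than 1.5-fold. Hist1h2be had 123 fragments in deletion HSCs and 35 in control HSCs over a long model, at 1.64 FPKM in deletion HSCs and 0.45 FPKM in control HSCs, a plain ratio of 3.63-fold (log2 interval 1.31 to 2.44). With 1 FPKM added to such low values the log2 ratio was 0.86. Hist2h2be was at 3.99 FPKM in deletion HSCs and 1.82 FPKM in control HSCs, from 176 (deletion) and 83 (control) fragments (0.82). The lowest ratios were those of Hist1h2bm, at 1.25 FPKM in deletion HSCs and 2.96 FPKM in control HSCs (-0.82), and of Hist1h2bk, at 2.12 FPKM in deletion HSCs and 3.75 FPKM in control HSCs (-0.61).

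H3 pairs with H4 in the core tetramer and carries many of the modified lysines of chromatin. Its sum was 37.8 FPKM in deletion HSCs and 32.3 FPKM in control HSCs (0.23, and 0.08 at a common total), with a fragment interval of -0.02 to 0.40 that includes equality. Of 7 genes whose mean reached 1 FPKM, 4 were above 0, 3 below and none past 2-fold. Hist1h3i was at 10.7 FPKM in deletion HSCs, against 5.88 FPKM in control HSCs (0.76), and Hist1h3c at 7.35 FPKM, against 5.21 FPKM in control HSCs (0.43). Hist1h3a went the other way, at 3.78 FPKM in deletion HSCs and 7.0 FPKM in control HSCs from 34 (deletion) and 65 (control) fragments (-0.74). Hist1h3h was at 1.30 FPKM in deletion HSCs, against 2.80 FPKM in control HSCs (-0.72), from 9 (deletion) and 20 (control) fragments. Its interval, -2.43 to 0.09, includes equality, and 90.5% of its windows are shared. The interval of Hist1h3c, -0.01 to 1.02, includes equality too. That of Hist1h3i, 0.30 to 1.44, lay above equality, with 52.7% of its windows shared, and that of Hist1h3a, -1.53 to -0.27, lay below it.

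H4 held the 2 lowest ratios of the 44 genes, those of Hist1h4a and Hist1h4j. The class sum was 84.0 FPKM in deletion HSCs and 73.6 FPKM in control HSCs (0.19, and 0.04 at a common total), with a fragment interval of -0.06 to 0.23. The median of its 10 genes whose mean reached 1 FPKM was 0.03 as deposited. At a common total, where Hist2h4 also passed the minimum, the median was -0.08, so the class median has no stable sign. Hist1h4i, by far the most abundant H4 gene, was at 34.95 FPKM in deletion HSCs and 33.5 FPKM in control HSCs from 428 (deletion) and 423 (control) fragments (0.06). Hist1h4h was at 9.73 FPKM in deletion HSCs and 6.12 FPKM in control HSCs (0.59). Hist1h4a was at 0.33 FPKM in deletion HSCs and 3.31 FPKM in control HSCs from 3 (deletion) and 31 (control) fragments, a plain log2 ratio of -3.32 with an interval of -5.68 to -1.64.

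**Figure D3:**
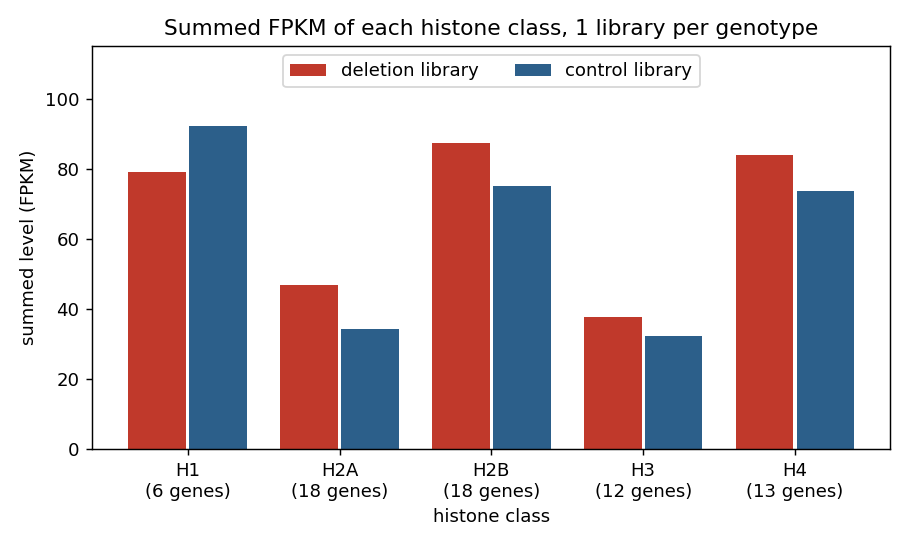
Summed FPKM of the 5 classes, all members included, with the deletion library beside the control library and no error bar because each bar is 1 library. H1 is lower in deletion HSCs, at 79.1 against 92.0 FPKM in control HSCs, and the other 4 sums are higher.

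A pair of H4 genes with near-identical promoters did not give the same ratio. Hist1h4j and Hist1h4k (chr13:21750194-21750505, minus strand) face each other 14356 bases apart, encode the same protein, and have promoters identical at 274 of 286 aligned bases (95.8%), the second closest of 66 pairs of H4 promoters by identical bases. They were picked for display after their values were seen. Their RefSeq promoters on GRCm38.p6, 250 bases before to 50 after the annotated start, are printed on the strand of the gene with the TATAAA match in capitals.

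Hist1h4j (chr13:21734784-21735083, plus strand): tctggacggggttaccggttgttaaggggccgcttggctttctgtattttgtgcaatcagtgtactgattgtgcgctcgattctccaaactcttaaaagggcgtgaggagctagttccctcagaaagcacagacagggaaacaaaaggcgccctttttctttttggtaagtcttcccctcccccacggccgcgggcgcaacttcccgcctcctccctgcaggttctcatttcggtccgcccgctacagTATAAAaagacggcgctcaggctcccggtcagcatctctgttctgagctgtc
Hist1h4k (chr13:21750504-21750803, minus strand): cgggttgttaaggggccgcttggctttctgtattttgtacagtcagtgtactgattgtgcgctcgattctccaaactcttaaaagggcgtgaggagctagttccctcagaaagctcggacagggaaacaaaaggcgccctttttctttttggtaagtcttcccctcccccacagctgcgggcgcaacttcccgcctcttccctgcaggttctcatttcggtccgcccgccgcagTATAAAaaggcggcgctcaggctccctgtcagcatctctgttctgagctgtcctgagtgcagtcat

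Hist1h4k was at 13.3 FPKM in deletion HSCs and 5.90 FPKM in control HSCs, from 70 (deletion) and 32 (control) fragments (log2 ratio 1.05, interval of the plain ratio 0.55 to 1.83). Hist1h4j had 0 fragments in deletion HSCs and 29 in control HSCs, at 0 FPKM in deletion HSCs and 2.16 FPKM in control HSCs. That is 9.37-fold lower when deletion HSCs are set at 3 fragments, and the upper end of its log2 interval was -2.84. The 2 genes together had 70 fragments in deletion HSCs and 61 in control HSCs. Of the windows, 12.5% in Hist1h4j and 53.4% in Hist1h4k occur in another gene, that is in each other or in 5 further H4 genes, and how reads were divided between such copies was not tested. The closest pair, Hist1h4m and Hist1h4n, has promoters identical at 298 of 299 bases. Hist1h4m was at 10.2 FPKM in deletion HSCs and 5.01 FPKM in control HSCs (0.90). Hist1h4n was at 7.18 FPKM in deletion HSCs and 7.23 FPKM in control HSCs. Their intervals, 0.42 to 1.65 for Hist1h4m and -0.59 to 0.57 for Hist1h4n, overlap, so no difference is read from this pair. Of the windows, 85.8% were shared in Hist1h4m and 77.2% in Hist1h4n, each with the other gene only.

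Hist1h1c weighed on the sums that contain it. The 4 genes of highest mean summed to 143 FPKM in deletion HSCs and 146 FPKM in control HSCs, and the other 63 to 192 FPKM, against 161 FPKM in control HSCs. The fragment interval was -0.18 to -0.03 for the 4 and 0.18 to 0.35 for the 63. Without Hist1h1c the other 3 of the 4 held 1111 fragments in deletion HSCs and 1055 in control HSCs. Their interval, -0.0031 to 0.24, overlaps that of the 63, so the lower sum of the 4 rests on that gene. In 23 genes an annotated transcript runs more than 100 bases past the stem-loop, by 840 bases in Hist1h1c, 330 in Hist1h4i and 155 in Hist1h2bg. Those 23 summed to 157 FPKM in deletion HSCs and 162 FPKM in control HSCs (fragment interval -0.12 to 0.02). The other 44 summed to 178 FPKM, against 146 FPKM in control HSCs (0.17 to 0.37). They include genes without a stem-loop match whose models are long all the same. Hist1h2bc has 742 bases after the stop codon and Hist2h2be 2192, so the split is not one of long against short models. Without Hist1h1c the remaining 22 summed to 96.4 FPKM in deletion HSCs and 89.8 FPKM in control HSCs, and also lay above equality (0.06 to 0.26). The lower sum of the 23 thus rests on Hist1h1c. The medians still differed. Among genes whose mean reached 1 FPKM, the median was 0.10 in the set of 23, with 10 of 15 above 0. For the others it was 0.38, with 18 of 29 above 0. The library kit is not given, so whether transcripts without a poly(A) tail were captured alike in both libraries is not known from the labels.

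Other RNAs that lack a poly(A) tail were read for the same reason. Rn7sk, the 7SK RNA that restrains the elongation factor P-TEFb, was at 46.5 FPKM in deletion HSCs and 30.6 FPKM in control HSCs, from 259 (deletion) and 176 (control) fragments. Rny1, a Y RNA, was listed at 0 in deletion HSCs and at 3.60 FPKM in control HSCs, from 0 (deletion) and 7 (control) fragments. Of 12 gene records on that list 8 were listed at 0 in both libraries. The 3 whose mean reached 1 FPKM had 1 past 2-fold, lower, and a median of 0.09. At a common total the median was -0.80, but there Rnu12, with 0 (deletion) and 2 (control) fragments, also passed the minimum. The summed level was 49.0 FPKM in deletion HSCs and 37.3 FPKM in control HSCs, and its higher value in deletion HSCs rests on Rn7sk. Without Rn7sk the other 11 records summed to 2.53 FPKM in deletion HSCs and 6.67 FPKM in control HSCs. They held 18 (deletion) and 26 (control) fragments, with an interval of -1.44 to 0.44 that includes equality. Whether the values of these RNAs bear on the histone values was not tested.

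Along the chromosome the ratios changed from gene to gene. Gaps of more than 100 kb divide Hist1 into 4 blocks. Block 1 (18 genes) summed to 80.3 FPKM in deletion HSCs and 64.9 FPKM in control HSCs, block 2 (5 genes) to 48.5 FPKM in deletion HSCs and 48.2 FPKM in control HSCs, and block 3 (29 genes) to 190 FPKM in deletion HSCs and 185 FPKM in control HSCs. The fragment interval was 0.05 to 0.39 in block 1, -0.16 to 0.19 in block 2 and -0.08 to 0.05 in block 3, and the intervals of blocks 2 and 3 include equality. Without Hist1h1c block 3 lay above equality, at 0.11 to 0.30. Block 4 holds the testis genes Hist1h2aa and Hist1h2ba, at 0. At the end of block 3, 3 neighbours that lie within 3715 bases, Hist1h4a, Hist1h3a and Hist1h1a, were all lower in deletion HSCs, with the values above. The genes before them, Hist1h3c, Hist1h2bb, Hist1h2ab and Hist1h3b, were higher, except for Hist1h4b between them, which had 0 fragments in deletion HSCs and 2 in control HSCs. Hist1h2bb was at 7.25 FPKM in deletion HSCs and 3.85 FPKM in control HSCs, and Hist1h3b at 1.44 FPKM, against 0.28 FPKM in control HSCs. This stretch was singled out after its values were seen.

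**Figure D4:**
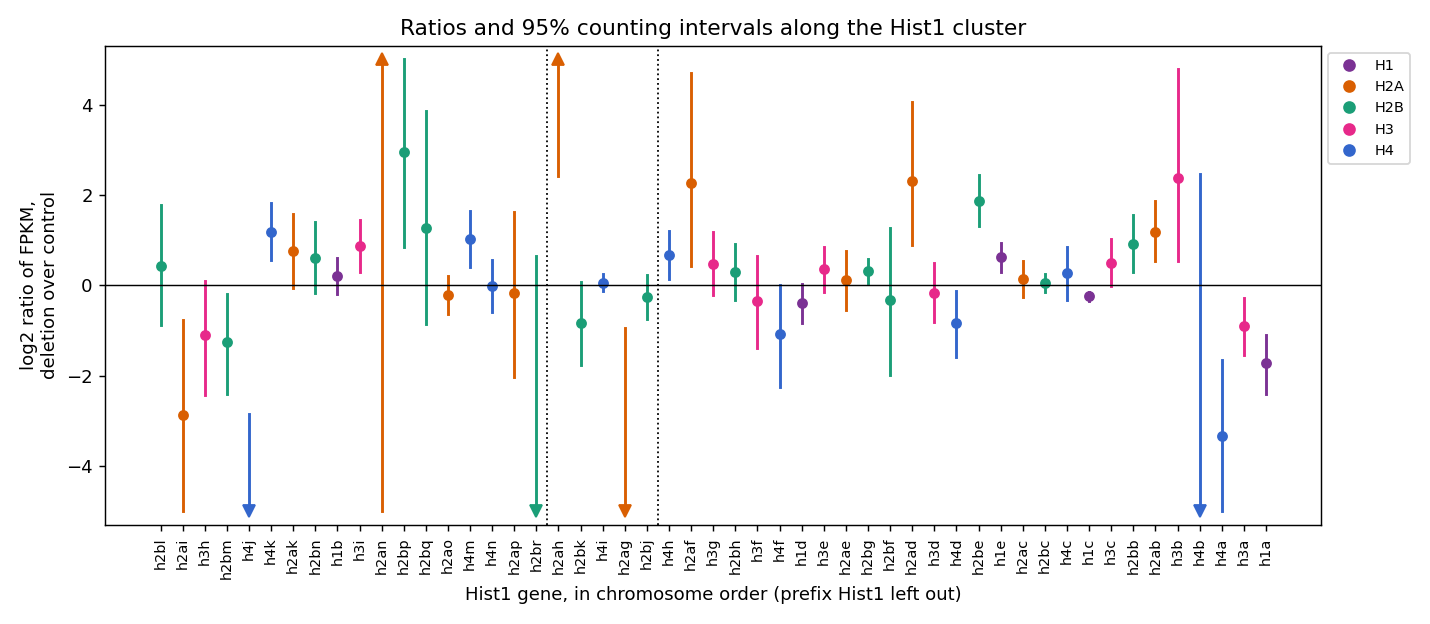
Plain log2 ratio of FPKM, deletion over control, with its 95% counting interval, for each Hist1 gene with fragments in chromosome order and coloured by class. Arrows mark genes listed at 0 in one library, lines are cut at the ends of the axis, and dotted lines mark the gaps of over 100 kb. Hist1h4a, Hist1h3a and Hist1h1a at the right end lie below 0.

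Outside Hist1, the Hist2 cluster was higher in deletion HSCs. It summed to 12.2 FPKM there and 5.71 FPKM in control HSCs, from 268 (deletion) and 125 (control) fragments, a log2 ratio of 1.09 for FPKM and 1.15 for fragments (interval 0.83 to 1.46). Only Hist2h2ac and Hist2h2be had a mean of at least 1 FPKM, and Hist2h4 added 0.98 FPKM in deletion HSCs and 0.25 FPKM in control HSCs, from 27 (deletion) and 7 (control) fragments. In the Hist3 cluster Hist3h2ba was at 3.67 FPKM in deletion HSCs and 3.00 FPKM in control HSCs, and Hist3h2a had 3 fragments in deletion HSCs, against 17 in control HSCs (log2 interval -4.87 to -0.67). Hist4h4 had 9 fragments in deletion HSCs and 22 in control HSCs, at 0.19 FPKM in deletion HSCs and 0.44 FPKM in control HSCs. The interval of Hist4h4 was -2.55 to -0.07, and both Hist3h2a and Hist4h4 had a mean under 1 FPKM.

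Many H2A and H2B genes stand head to head and share the sequence between their starts. There were 13 such pairs less than 1000 bases apart, 12 of them an H2A with an H2B gene, and both members had a mean of at least 1 FPKM in 7. In 4 of the 7 both ratios were above 0, in 0 both were below, and in 3 they were opposite. Of all 44 genes with that mean 63.6% were above 0, and whether paired genes agree more often than unpaired ones was not tested. In the pairs above 0 the intervals of Hist1h2ac, Hist1h2bc, Hist1h2ae, Hist1h2ak and Hist1h2bn include equality. The opposite pairs were Hist1h2ah with Hist1h2bk, Hist1h2ad with Hist1h2bf and Hist1h2ai with Hist1h2bl. Each contains an H2A gene of the low and largely shared kind. The intervals of their H2B genes include equality, at -1.77 to 0.08 for Hist1h2bk, -1.98 to 1.28 for Hist1h2bf and -0.88 to 1.77 for Hist1h2bl. Hist2h2ac and Hist2h2be (chr3:96221119-96223738, plus strand), 238 bases apart, were both more than 2-fold higher on plain FPKM, with log2 ratios of 1.17 and 1.13. Neither shares a window with another gene. The stretch between their starts is shown for that reason, as the RefSeq promoter of Hist2h2ac on GRCm38.p6. Capitals mark the octamer, CCAAT and TATAAA matches on either strand.

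Hist2h2ac (chr3:96220831-96221130, minus strand): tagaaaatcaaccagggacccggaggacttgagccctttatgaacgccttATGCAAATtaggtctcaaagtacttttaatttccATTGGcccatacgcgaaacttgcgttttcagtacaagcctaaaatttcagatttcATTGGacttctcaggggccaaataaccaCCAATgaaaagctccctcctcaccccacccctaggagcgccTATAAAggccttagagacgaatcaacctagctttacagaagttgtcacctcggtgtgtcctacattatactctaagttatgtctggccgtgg

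Promoters were matched for 62 of the 67 genes, and 4 motifs were searched on both strands, overlaps allowed. The octamer ATTTGCAT was in 7 of 18 H2A and 6 of 16 H2B promoters and in none of H1, H3 or H4, against 1.66% of 21262 protein-coding promoters. CCAAT was in every H1, H2A, H2B and H3 promoter matched but in 3 of 12 H4 promoters, against 38.2% of all. TATAAA was in 35 of 62 (56.5%), against 12.6%, and AAACACA, known as the H1 box, in 5 of 6 H1 promoters, against 6.15%. A match describes the letters of the window and not binding by a factor.

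Replacement variants held most of the H2A and H3 FPKM in these libraries. The library kit is not given, and replication-dependent mRNAs without a poly(A) tail, or reads shared between copies such as the Hist2h2aa and Hist2h3 genes listed at 0, may be undercounted, so these are shares of measured FPKM and not of the mRNA in the cells. Replication-dependent genes made up 5.71% of H2A FPKM in deletion HSCs and 4.91% in control HSCs, and 6.54% and 5.69% of H3 FPKM. For H1 the share was 65.3% in both. Of 10 replacement variant genes whose mean reached 1 FPKM, 0 passed 2-fold, with a median of 0.13 as deposited and -0.01 at a common total. H2afz, which encodes H2A.Z, was at 390 FPKM in deletion HSCs and 341 FPKM in control HSCs. H3f3a and H3f3b both encode H3.3, and they lay apart. H3f3a had the highest ratio of the list, at 112 FPKM in deletion HSCs and 74.5 FPKM in control HSCs (0.58), while H3f3b was at 381 FPKM in deletion HSCs and 415 FPKM in control HSCs. The linker variant H1f0 was at 29.5 FPKM in deletion HSCs and 33.2 FPKM in control HSCs, and H1fx had the lowest ratio, at 12.4 FPKM in deletion HSCs and 15.7 FPKM in control HSCs (-0.31).

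Genes that make, process and handle histone mRNA and protein were close to equality. Of 23 genes of histone transcription and 3′ processing whose mean reached 1 FPKM, 0 passed 2-fold, 10 were above 0 and 13 below, with a median of -0.02. Slbp, the stem-loop binding protein, was at 23.1 FPKM in deletion HSCs and 20.9 FPKM in control HSCs. Npat was at 7.79 FPKM, against 7.22 FPKM in control HSCs, and Casp8ap2 at 7.91 FPKM, against 8.13 FPKM in control HSCs. These 3 differed by less than 1.5-fold. Lsm10 and Lsm11, subunits of the U7 snRNP, were the ends of the list, with Lsm10 at 12.3 FPKM in deletion HSCs and 8.91 FPKM in control HSCs (0.42) and Lsm11 at 3.28 FPKM in deletion HSCs and 4.87 FPKM in control HSCs (-0.46). Among 22 histone chaperone and import genes, 0 passed 2-fold and the median was 0.11, or -0.03 at a common total. Asf1b, the S phase H3-H4 chaperone, had the highest ratio, at 22.6 FPKM in deletion HSCs and 16.8 FPKM in control HSCs, and Ubn1, a subunit of the HIRA complex, the lowest, at 17.4 FPKM in deletion HSCs and 21.9 FPKM in control HSCs.

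Proliferation genes were also close to equality. The 28 S phase genes had 0 past 2-fold and a median of 0.02, or -0.12 at a common total. Their highest ratio was that of the dUTPase gene Dut, at 116 FPKM in deletion HSCs and 94.0 FPKM in control HSCs, and their lowest that of E2f1, at 21.8 FPKM in deletion HSCs and 27.2 FPKM in control HSCs. The 20 mitosis genes had 0 past 2-fold and a median of 0.13, or -0.02 at a common total. The phosphatase gene Cdc25c was at 14.4 FPKM in deletion HSCs and 9.61 FPKM in control HSCs, and Mki67 at 75.1 FPKM in deletion HSCs and 86.3 FPKM in control HSCs. In bulk RNA a different share of cells in S phase and a different amount of histone mRNA per cell cannot be told apart.

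**Figure D5:**
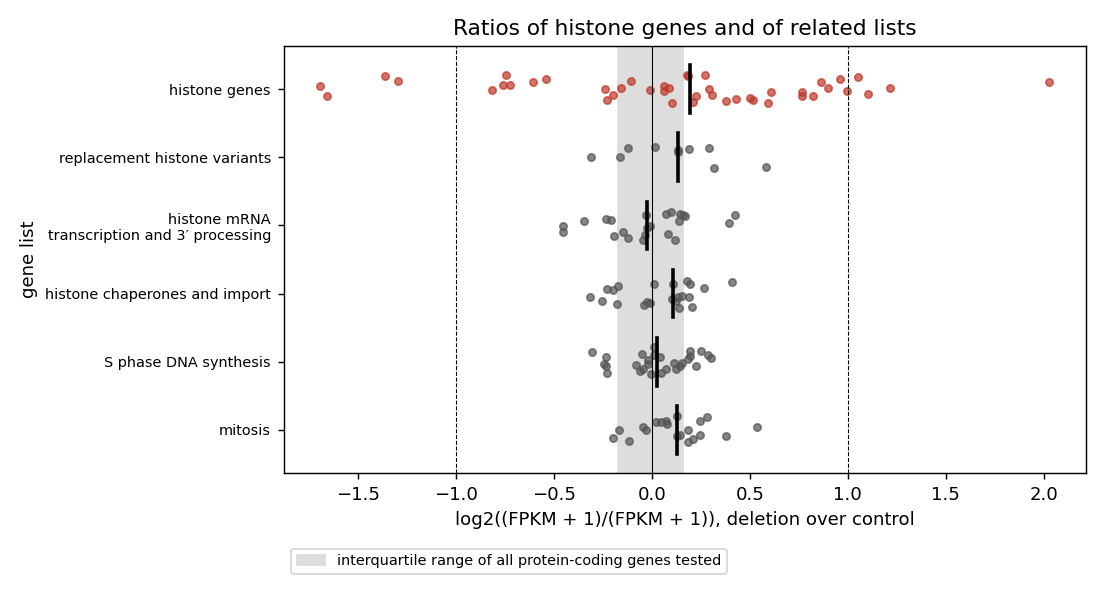
Log2((FPKM + 1)/(FPKM + 1)) of deletion over control for each gene whose mean reached 1 FPKM in the histone genes and the related lists, with the median of each list and the interquartile range of all protein-coding genes tested. The histone genes range from -1.70 to 2.03, and the replacement variants from -0.31 to 0.58.

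Markers of other cells differed between the libraries, and their part in the histone values was not tested. Of 11 HSC and progenitor markers whose mean reached 1 FPKM, 0 passed 2-fold, with a median of -0.16 and a sum of 160 FPKM in deletion HSCs and 169 FPKM in control HSCs. They ran from Ly6a, which encodes the HSC marker Sca-1, at 2.86 FPKM in deletion HSCs and 4.49 FPKM in control HSCs, to Cd48 at 16.3 FPKM in deletion HSCs and 8.23 FPKM in control HSCs. Erythroid genes had 1 of 11 past 2-fold, lower, 8 of 11 below 0 and a median of -0.09. They summed to 2404 FPKM in deletion HSCs and 2176 FPKM in control HSCs, but without Car1, at 1629 FPKM in deletion HSCs and 1315 FPKM in control HSCs, to 775 FPKM in deletion HSCs and 861 FPKM in control HSCs. The lowest ratio was that of Alas2, at 1.51 FPKM in deletion HSCs and 4.53 FPKM in control HSCs. Neutrophil and monocyte genes summed to 4089 FPKM in deletion HSCs and 3602 FPKM in control HSCs, with 4 of 12 past 2-fold higher, 6 lower and a median of -0.96, from Csf1r at 0.75 FPKM in deletion HSCs and 4.44 FPKM in control HSCs to Ctsg at 252 FPKM in deletion HSCs and 90.1 FPKM in control HSCs. Erythroid and myeloid RNA was thus abundant in libraries labelled HSC. Megakaryocyte genes summed to 154 FPKM in deletion HSCs and 59.3 FPKM in control HSCs, with 3 of 6 higher, from Gp9 at 10.6 FPKM in deletion HSCs and 7.58 FPKM in control HSCs to Treml1 at 7.58 FPKM in deletion HSCs and 1.35 FPKM in control HSCs. Macrophage genes summed to 21.8 FPKM in deletion HSCs and 39.7 FPKM in control HSCs, with 2 of 7 lower, from Hmox1 at 4.34 FPKM in deletion HSCs and 10.4 FPKM in control HSCs to Vcam1 at 5.78 FPKM in deletion HSCs and 3.69 FPKM in control HSCs. The plasma cell gene Mzb1 was at 2.10 FPKM in deletion HSCs and 5.21 FPKM in control HSCs. Endothelial genes summed to 67.9 FPKM in deletion HSCs and 76.3 FPKM in control HSCs, with 0 of 4 past 2-fold. Most of that was Eng, at 59.6 FPKM in deletion HSCs and 66.4 FPKM in control HSCs. The other 6 genes summed to 8.30 FPKM in deletion HSCs and 9.89 FPKM in control HSCs. The lowest ratio was that of Robo4, at 2.55 FPKM in deletion HSCs and 3.43 FPKM in control HSCs. The highest was that of Tek, at 1.71 FPKM in deletion HSCs and 1.82 FPKM in control HSCs. Cdh5 itself was listed at 0 FPKM in deletion HSCs and 0.027 FPKM in control HSCs. Angptl2 (chr2:33216069-33247717, plus strand) had 19 fragments in deletion HSCs and 29 in control HSCs, with an interval of -1.48 to 0.32. That interval includes equality, so these counts do not check the labels.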

How the data were processed

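RNA of bone marrow HSCs was extracted with TRIzol and a column kit and sequenced as paired-end reads of 150 bases, per the labels' protocols. The authors deposited FPKM (fragments per kilobase and per 1000000 fragments) for 54531 genes in 1 library per genotype. Bowtie 0.12.2 and mm8 appear in the submitters' processing notes without a stated role. The counting tool is not given in the sources used here, nor is the annotation. Gene types, lengths, positions and stem-loops were taken from GENCODE M21 on GRCm38 and promoters from RefSeq, so positions are not those of mm8. No table column was left unused.

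Fragment numbers were computed from the step of FPKM times exon length. They were whole within 0.02 for 96.1% of 18202 genes above 0 in the deletion library and 96.5% of 21874 in the control library, and gave the depths. Ratios are deletion over control on log2(FPKM + 1), for genes whose mean reached 1 FPKM, and calls are at 2-fold. This scale understates the change of low genes. Rescaling to a common total raised all values, while the pseudocount and the minimum stayed at 1, so more histone genes passed the minimum there. Intervals are exact 95% Clopper-Pearson intervals and, like the floor of 3 fragments, cover counting error only. No p-value was computed. Python 3.11.15, numpy 2.4.6, pandas 2.3.3, scipy 1.17.1, matplotlib 3.10.9 and Biopython 1.88 were used.

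Named with values were, per class, the 3 genes with the highest mean and the 2 highest and 2 lowest ratios, the Hist3 and Hist4 genes, the ends of each of 13 lists and 6 regulators and variants, and further genes after their values were seen. The members, lists and alternatives were chosen with earlier results of these data known. Zcchc6 and Ars2 were not matched to a symbol. The summary of the B and plasma cell list and its upper end are not reported here. Alternatives covered the pseudocount, minimum, scaling, threshold, summing and shared windows. The labels' genotype set the groups.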

Additional observations from a re-analysis of the deposited data

How the results depend on the processing

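The median of the histone genes stayed above 0 under all 10 alternatives run for it, between 0.10 and 0.37. The counts of genes past 2-fold, 4 higher and 4 lower, moved with nearly every setting. They were 9 and 7 with a pseudocount of 0.1 FPKM, 0 and 0 with 5 FPKM, 1 and 0 with a minimum mean of 5 FPKM, 13 and 9 at 1.5-fold, and 1 and 0 at 4-fold. With a common FPKM total they were 7 and 8, and without mitochondrially encoded genes in that total 10 and 7. Among genes with under 50% of windows shared 0 were higher, and among genes with at least 50 fragments 1 was higher and 1 lower, both alternatives being chosen after the data were seen. The log2 ratio of summed FPKM, 0.12, was -0.024 at a common total, 0.055 at that total without mitochondrially encoded genes, 0.055 from fragments per depth, 0.22 without Hist1h1c and 0.066 among genes with under 50% of windows shared. The pseudocount, minimum and threshold change the counts by their construction. Rescaling to a common total, with or without mitochondrially encoded genes, does so in part as well. It raised all values while the pseudocount and minimum stayed at 1, so 51 histone genes and not 44 passed the minimum. The cause of the other changes was not tested. Leaving out the most abundant gene, added after the data were seen, turned the fragment ratio of the 4 most abundant genes (-0.11) to 0.12 and of the erythroid list (0.073) to -0.13, and moved that of the genes with long models (-0.054) to 0.16, of H1 (-0.20) to -0.0041 and of block 3 (-0.013) to 0.20. The median of all genes was -0.011 as deposited, -0.16 at a common total and -0.089 without mitochondrially encoded genes. Called genes rest on few fragments, and no replicate could be left out. No paired analysis was possible because each genotype has 1 library.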
